A study of Mus musculus with 10 samples.

Results

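Translation initiation factors are the proteins that bring the ribosome, the initiator tRNA and the start codon of an mRNA together. Their genes were taken as all rows of the deposited table whose symbol begins with Eif followed by a digit from 1 to 6, leaving out the Eif2ak kinases, which gave 49 of 17658 genes. RNA sequencing gave their transcript levels in B cells of C57BL/6 mice of 10 weeks of age, enriched magnetically from spleen and lymph node by removal of other cells. The groups were Nr4a1+/+ and Nr4a1-/- cells without stimulation (1 library each) and Nr4a1+/+ and Nr4a1-/- cells after 2 hours with anti-IgM at 10 µg/mL, which crosslinks the B cell antigen receptor (4 libraries each, lettered A to D). Nr4a1, or Nur77, is an orphan nuclear receptor that antigen receptor signals induce, and the series compares the genotypes in stimulated cells. Nothing in the labels says whether a letter is a separate mouse, so the p-values below measure the spread between these libraries, which may be technical. In such bulk samples, fewer cells of a type and less RNA per cell cannot be told apart.

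As background, the small ribosomal subunit binds eIF1, eIF1A, eIF3, eIF5 and the eIF2 complex that carries initiator tRNA. The cap of the mRNA is bound by eIF4F, made of the cap-binding protein eIF4E, the scaffold eIF4G and the helicase eIF4A, and the 4E-BP proteins hold eIF4E back until the kinase mTORC1 phosphorylates them. eIF2B reloads eIF2 with GTP, and eIF5B joins the large subunit. Resting B cells are small and make little protein, and antigen receptor signals start growth and protein synthesis. Several initiation factor genes are known targets of Myc, which with Max binds the E-box CACGTG.

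For that reason the E-box was searched for in the 250 bases before every start in the RefSeq promoter table (build GRCm38.p6). CACGTG reads the same on both strands and was the only motif searched. Of the 49 members 38 had a window and 9 of these held the motif (23.7%). The share was 10.7% of the 7462 tested genes with a window and 6.86% of all 27025 genes with a window. Counted by window it was 6.02% of all 32851 windows. Genes with more windows, such as Eif5a with 6 and Eif4enif1 with 4, had more chances to hold the motif. Among members that rose by at least 2-fold (below) 4 of 12 held it, among those that rose by less 1 of 15, and among those that fell or did not pass the test 4 of 11. Over all tested genes with a window, 17.4% of those that rose by at least 2-fold and 6.96% of those that fell by as much held it. Eif5a and Eif5a2 held 2 matches each, of which only the match nearer to a start is shown. The stretches of 30 bases shown here come from the 4 members with the motif that rose by at least 2-fold and the 3 that fell, with the E-box in capitals:

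Eif4e, distal: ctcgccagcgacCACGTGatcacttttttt

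Eif4e, proximal: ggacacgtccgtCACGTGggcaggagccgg

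Eif4a1: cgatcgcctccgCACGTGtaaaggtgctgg

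Eif4g1: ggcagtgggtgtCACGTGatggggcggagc

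Eif5a: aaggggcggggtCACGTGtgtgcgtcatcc

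Eif1b: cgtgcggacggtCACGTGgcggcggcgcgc

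Eif3k: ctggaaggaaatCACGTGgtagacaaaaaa

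Eif5a2: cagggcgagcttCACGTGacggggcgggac

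The Eif4e stretches lie on the plus strand at chr3:138527028-138527057 and chr3:138527192-138527221, with motifs that begin 228 and 64 bases before an annotated start. Those of Eif4a1 (chr11:69672595-69672624, minus strand), Eif4g1 (chr16:20672661-20672690, plus strand) and Eif5a (chr11:69921443-69921472, minus strand) have motifs that begin 189, 54 and 74 bases before a start. For Eif1b (chr9:120492570-120492599, plus strand), Eif3k (chr7:28981915-28981944, minus strand) and Eif5a2 (chr3:28781148-28781177, plus strand) the distances are 24, 44 and 117 bases. For Eif4e, Eif5a and Eif5a2 that start lies inside the annotated gene, so these stretches overlap the gene. A match of letters is a description and not a binding site.

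Levels are given as FPKM, fragments counted per kilobase of a transcript and scaled to library size, so they can be compared between genes, and differences are on the log2(FPKM + 1) scale. Over all genes FPKM added up to 674961 in unstimulated wild type, 595500 in the unstimulated library labelled knockout and 557214 to 571784 after stimulation. Nr4a1 itself was at 126 FPKM in both unstimulated libraries, at 744 to 856 FPKM in stimulated wild type and at 660.2 to 760.0 FPKM in stimulated libraries labelled knockout. The stimulated ranges overlapped, with a log2 difference of -0.20 (limma adjusted p = 0.0432). This level does not check the label, since what the allele removes from the transcript is not given, so every direction is between libraries as labelled. The 6 B cell markers added up to 4032 FPKM (wild type) and 3804 FPKM (labelled knockout) without stimulation and to between 1302 and 1427 FPKM with it. Cd3d, Cd3e and Cd3g were at most 0.33 FPKM in any library, and the 6 T cell markers, of which Lck made up nearly all, summed to 44.5 to 49.0 FPKM in stimulated wild type and 65.3 to 67.6 FPKM in stimulated libraries labelled knockout. The 6 myeloid markers, mostly Lyz2, ran from 38.1 to 138 FPKM in stimulated wild type and from 23.1 to 101 FPKM in stimulated libraries labelled knockout. These marker levels moved with the stimulation or between libraries, and their part in the results below was not tested.

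Most initiation factor transcripts were higher after anti-IgM. Summed over the 49 members, the level was 5107 and 5114 FPKM in the unstimulated libraries, 7759 to 8023 FPKM in the stimulated wild-type libraries and 7892 to 8221 FPKM in the stimulated libraries labelled knockout, or 0.757% and 0.859% of all FPKM before and 1.37% to 1.44% after. The 48 members that reached a mean of 1 FPKM entered a limma fit of all 10 libraries that had genotype as a covariate, at a Benjamini-Hochberg adjusted p under 0.05 over the 10225 genes tested. Of these 48, 34 rose (70.8%), 8 fell and 6 did not pass. Among all tested genes 78.9% passed, with 31.2% higher and 47.7% lower. At 2-fold or more (1 on the log2 scale) 16 members rose and 0 fell. Of all genes 20.3% passed that limit, 7.94% higher and 12.4% lower. The 8 stimulated libraries all lay above both unstimulated ones for 33 members and below them for 8, against 28.6% and 44.3% of all genes (72.9% in either direction). With 1 unstimulated library per genotype, the spread in the limma fit comes from the stimulated libraries and from any unequal change in the genotypes. The SE was 0.129 for Eif4ebp2, whose unstimulated libraries differed by 0.65 log2 units. For Eif3j1, with a difference of 0.020, the SE was 0.0485.

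**Figure D1:**
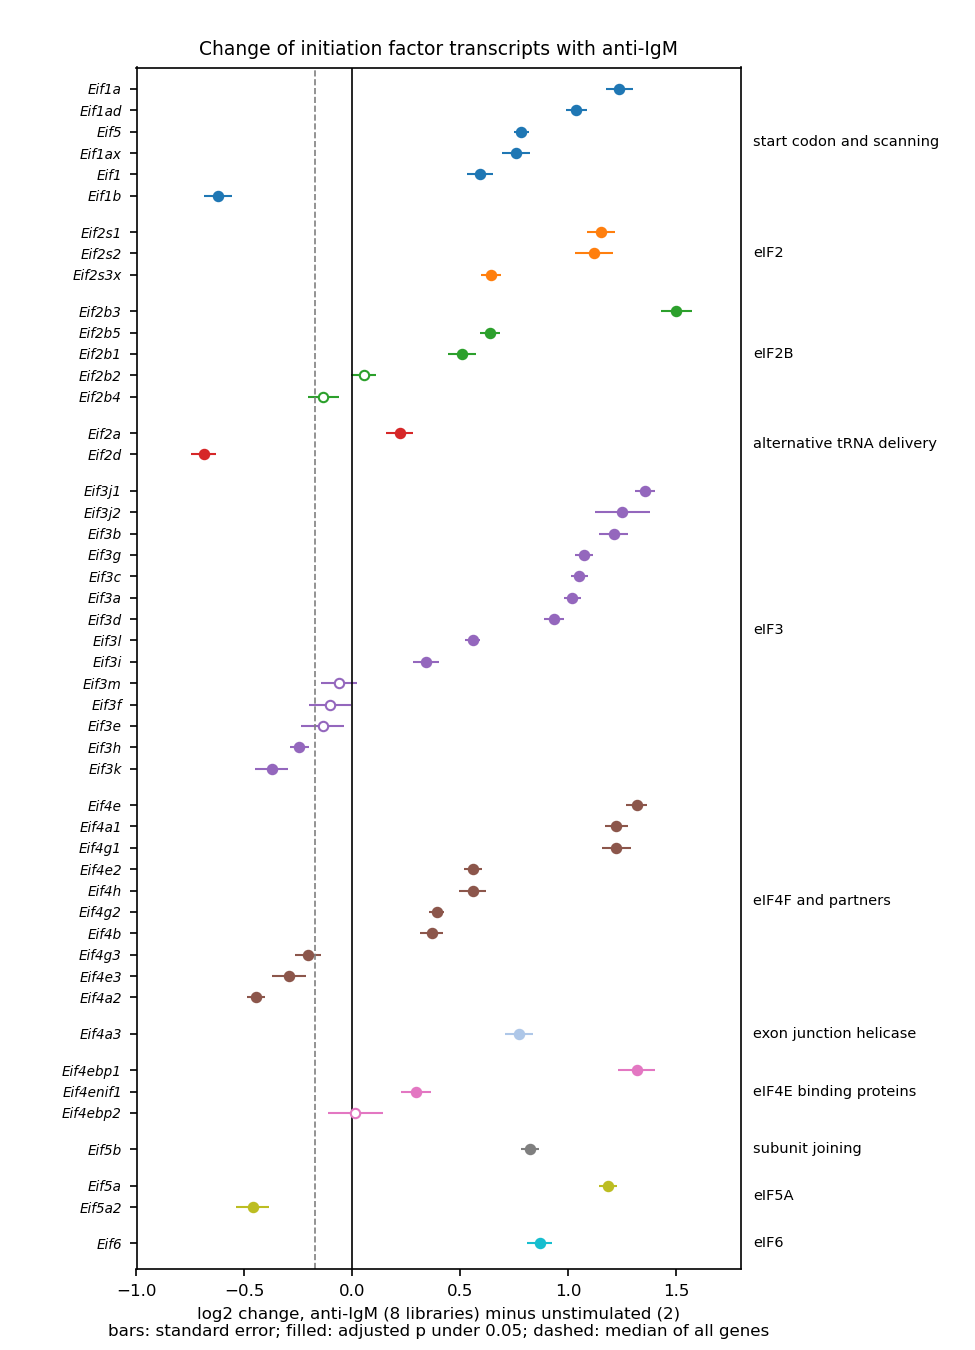
Log2 change with anti-IgM (x axis, log2(FPKM + 1) scale) of the 48 tested members, grouped by complex; bars are standard errors, filled points passed the test and the dashed line is the median of all tested genes (-0.17). Most members lie to the right of 0, with Eif2b3 at the right edge (1.501) and Eif2d at the left edge (-0.69).

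The median change of the 48 members was 0.61, where that of all tested genes was -0.17, and 40 of 48 lay above the latter. The shift of all genes was -0.029 after rescaling every library to the same sum and 0.035 with median-of-ratios scaling. Quantile normalization gave 0.0043. On those scales 35, 35 and 31 of the 48 members rose and 5, 4 and 9 fell. Of all tested genes 36.2%, 41.5% and 38.6% rose on those scales and 37.8%, 35.6% and 37.6% fell. On the deposited scale these shares were 31.2% and 47.7%, so the background moved with the scale too. The rise of most members was seen on each scale, and their number of falls was not stable. Eif4ebp3, the member left out for its low level, ran from 0.26 to 0.73 FPKM over the 10 libraries.

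Of the 6 genes grouped under scanning and start codon choice, 5 rose and 1 fell. Eif1, which opens the small subunit for scanning, was the most abundant, with 296 FPKM in unstimulated wild-type cells and 384 FPKM in their counterpart labelled knockout. Stimulated wild type held 493, 486, 506 and 488 FPKM (in the order of the letters, here and below). Those labelled knockout held 514, 503, 555 and 527 FPKM. All 8 stimulated libraries were above both unstimulated ones (log2 change 0.59, SE 0.0611, limma adjusted p = 3.99e-06). Its close paralog Eif1b went the other way, from 42.6 and 50.5 FPKM to 27.6, 31.2, 29.0 and 31.4 FPKM in wild type and 29.7, 30.3, 30.6 and 28.7 FPKM in libraries labelled knockout (log2 change -0.62, SE 0.0633, limma adjusted p = 3.43e-06). The stimulated and unstimulated libraries did not overlap for either gene.

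Eif1a encodes a form of eIF1A, which works with eIF1 on the scanning ribosome. Its level was 67.2 and 68.9 FPKM before stimulation and 159.9, 161, 174 and 149.7 FPKM in wild type and 167, 148, 162 and 175 FPKM in libraries labelled knockout after it (log2 change 1.24, SE 0.0633, limma adjusted p = 1.07e-08). Eif1ax, the X-linked copy, rose less (0.76), and the share of Eif1a in the FPKM of the pair went from 42.4% and 45.6% to between 51.1% and 54.4%. Eif1ad, which was counted with this group without a check of its role, rose by 1.04 on the log2 scale. Eif5, which makes eIF2 hydrolyse its GTP at the start codon, rose by 0.78, from 171 and 179 FPKM to 297 ± 7.04 FPKM in wild type and 306 ± 5.50 FPKM in libraries labelled knockout (SD, n = 4 each).

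All 3 eIF2 subunits in the table rose. Eif2s2, the beta subunit, stood at 104 and 78.5 FPKM before stimulation. After it the wild-type libraries held 196, 192, 199 and 183 FPKM and those labelled knockout 202, 191, 204 and 216 FPKM. Every stimulated library was far above both unstimulated ones (log2 change 1.12, SE 0.0879, limma adjusted p = 3.83e-07). Eif2s1, the alpha subunit that stress kinases phosphorylate, rose by 1.15 and Eif2s3x, the gamma subunit that binds tRNA and GTP, by 0.64.

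The subunits of eIF2B, the exchange factor of eIF2, did not move as one. Eif2b3, the gamma subunit of the catalytic part, had the largest rise of all 48 members. It went from 15.1 and 12.8 FPKM to 41.2, 42.2, 40.2 and 38.1 FPKM in wild type and 39.5, 41.1, 41.4 and 46.3 FPKM in libraries labelled knockout (log2 change 1.501, SE 0.0715, limma adjusted p = 6.10e-09). Eif2b5, the catalytic epsilon subunit and the most abundant of the 5, was at 31.1 and 34.7 FPKM and then at 51.5, 51.2, 52.8 and 49.7 FPKM in wild type and 49.3, 53.4, 52.9 and 52.7 FPKM in libraries labelled knockout (log2 change 0.64, SE 0.0459, limma adjusted p = 1.80e-07). Of the regulatory subunits, Eif2b1 (alpha) rose by 0.51, while Eif2b2 (beta, 0.052, limma adjusted p = 0.426) and Eif2b4 (delta, -0.13, limma adjusted p = 0.107) did not pass. Eif2b2 was, however, called higher after rescaling to the same sum (0.21, limma adjusted p = 0.0350) and with median-of-ratios scaling (0.28, limma adjusted p = 0.000727). Before stimulation the 5 genes ran from 12.8 to 34.7 FPKM in the library labelled knockout, with Eif2b3 the lowest, and after it Eif2b3 was second to Eif2b5 in all 8 libraries.

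Both factors that can deliver initiator tRNA without eIF2 were tested. Eif2d had the largest fall of all members, from 14.4 and 14.2 FPKM to 9.09, 9.14, 8.57 and 8.80 FPKM in wild type and 7.99, 8.61, 8.42 and 7.62 FPKM in libraries labelled knockout (log2 change -0.69, SE 0.0571, limma adjusted p = 6.02e-07). Eif2a was at 38.9 and 31.5 FPKM before and at 40.4, 39.9, 42.7 and 40.9 FPKM in wild type and 41.7, 42.4, 38.4 and 40.7 FPKM in libraries labelled knockout after. Its fitted rise (0.22, SE 0.0630, limma adjusted p = 0.00783) was 0.073 without the unstimulated library labelled knockout (limma adjusted p = 0.278). It also missed the threshold after quantile normalization, with array weights and with the library letter as a block. The stimulated libraries overlapped the unstimulated wild-type value.

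eIF3 is the large scaffold that holds the small subunit and the mRNA together, and its 14 genes split. Of these, 9 rose, 2 fell and 3 did not pass. Eif3b, Eif3g, Eif3c, Eif3a and Eif3d rose by 1.21, 1.07, 1.05, 1.02 and 0.93 on the log2 scale. Eif3b stood at 73.0 and 96.6 FPKM before stimulation and at 197, 191, 199 and 192 FPKM in wild type and 196, 195, 201 and 195 FPKM in libraries labelled knockout after it. The 8 stimulated values of Eif3b lay within 191 to 201 FPKM, well apart from the unstimulated pair. Eif3l (0.56) and Eif3i (0.34) rose less, and Eif3i was at 0.10 (limma adjusted p = 0.131) after quantile normalization.

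At the other end stood Eif3k, Eif3h, Eif3e, Eif3f and Eif3m, 5 of the subunits that, with others, form the PCI and MPN core. Eif3k, a small subunit that some eukaryotes lack, was at 285 and 211 FPKM before stimulation. It was at 193, 194, 191 and 188 FPKM in wild type and 172, 192, 189 and 193 FPKM in libraries labelled knockout after it (log2 change -0.37, SE 0.0747, limma adjusted p = 0.000726). The fall measured -0.57 against the unstimulated wild-type library alone and -0.18 against the one labelled knockout alone, and with median-of-ratios scaling it did not pass (-0.14, limma adjusted p = 0.154). Eif3h also fell (-0.25), from 259.8 and 222 FPKM to 207 ± 2.93 FPKM in wild type and 199 ± 6.88 FPKM in libraries labelled knockout (SD, n = 4 each), and lost its call after rescaling to the same sum and with median-of-ratios scaling.

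Eif3e, the most abundant eIF3 transcript on average, differed most between the unstimulated libraries, with 328 FPKM in wild type against 224 FPKM in the one labelled knockout. After anti-IgM it was at 233, 252, 254 and 233 FPKM in wild type and 246, 245, 249 and 259 FPKM in libraries labelled knockout. The stimulated values thus lay between the unstimulated pair, and the fitted change did not pass (-0.14, limma adjusted p = 0.226). The same held for Eif3m (-0.063, limma adjusted p = 0.502) and Eif3f (-0.10, limma adjusted p = 0.349), for which the unstimulated libraries differed by -0.48 and 0.53 on the log2 scale. After quantile normalization Eif3e, Eif3m and Eif3f were called lower, at -0.31, -0.26 and -0.34 (limma adjusted p = 0.00691, 0.00625 and 0.0105).

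With these unequal changes the 12 eIF3 genes other than the Eif3j pair came closer to each other. The highest was 4.49 times the lowest in the unstimulated wild-type library and 2.38 times in the one labelled knockout. In the 8 stimulated libraries the ratio was 1.90 to 2.02. The coefficient of variation across the 12 genes, which multiplying a library by 1 factor does not move, was 50.5% and 33.3% before stimulation and 18.1% to 21.3% after it. The lowest gene after stimulation was Eif3l in all 8 libraries, at 136 to 145 FPKM.

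**Figure D2:**
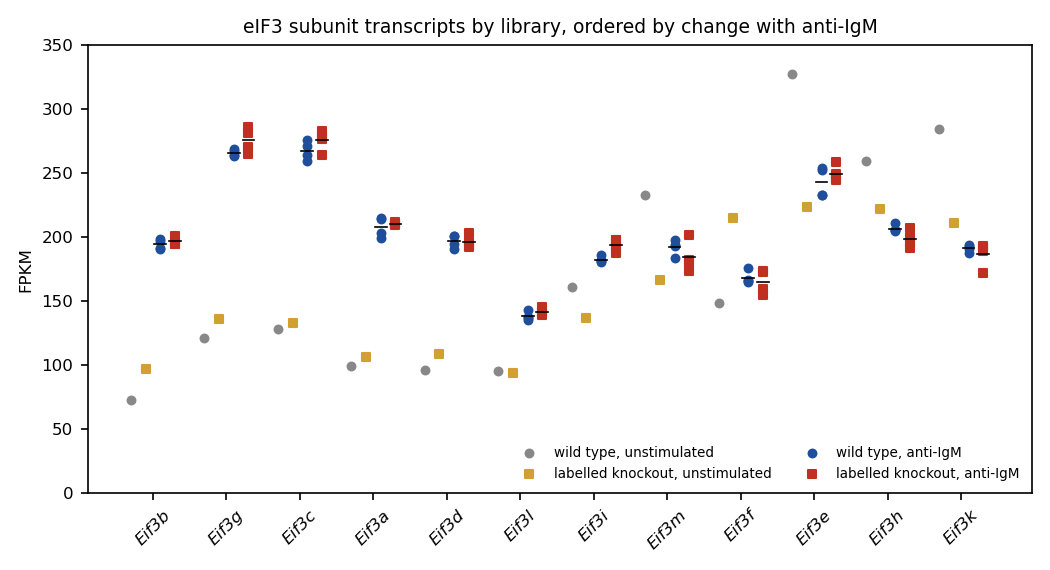
FPKM (y axis) of 12 eIF3 genes in each of the 10 libraries, ordered by their change with anti-IgM; points are libraries, short lines are means of 4. Genes on the left start near 100 FPKM and move up, and those on the right start higher. After anti-IgM Eif3h and Eif3k lie below both unstimulated libraries, and Eif3m, Eif3f and Eif3e lie between them. The stimulated libraries of all 12 genes lie between 136 and 287 FPKM.

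Eif3j1 and Eif3j2 encode the loosely bound j subunit, which sits near the decoding site. Eif3j1 was at 55.2 and 56.0 FPKM before stimulation and at 138, 141, 151 and 137 FPKM in wild type and 141, 139, 152 and 152 FPKM in libraries labelled knockout after it (log2 change 1.36, SE 0.0485, limma adjusted p = 7.05e-10). Eif3j2 was at 5.27 and 6.99 FPKM and then at 18.6, 13.9, 16.8 and 13.6 FPKM in wild type and 13.5, 16.3, 18.00 and 17.0 FPKM in libraries labelled knockout (log2 change 1.25, SE 0.127, limma adjusted p = 3.46e-06). Of the 50-base stretches of Eif3j2 transcripts in GENCODE M21, 90.8% are also in Eif3j1, so the division of reads between them is uncertain.

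All 3 core parts of eIF4F rose by more than 2-fold in their main form. Eif4e, the cap-binding protein, went from 45.8 and 43.0 FPKM to 110.3, 109.6, 113 and 108 FPKM in wild type and 113, 106, 117 and 118 FPKM in libraries labelled knockout (log2 change 1.32, SE 0.0479, limma adjusted p = 8.06e-10). Eif4g1, the main scaffold, went from 71.5 and 95.3 FPKM to 198, 186, 194 and 192 FPKM in wild type and 200.02, 193, 193 and 196 FPKM in libraries labelled knockout (log2 change 1.22, SE 0.0684, limma adjusted p = 2.16e-08). Eif4a1, the main helicase and the most abundant of all members, was at 489.6 and 436 FPKM before stimulation. It stood at 1062, 1051, 1086 and 1040.3 FPKM in wild type and 1083, 1060.0, 1128 and 1129.5 FPKM in libraries labelled knockout after it (log2 change 1.22, SE 0.0535, limma adjusted p = 3.18e-09). For each of the 3 genes every stimulated library exceeded both unstimulated ones. In GENCODE M21, 28.4% of the 50-base stretches of Eif4a1 are found in other genes, mostly in Eif4a-ps4. The share was 34.6% for Eif2s3x, 20.3% for Eif3h, 19.2% for Eif1, 17.2% for Eif3m and 16.5% for Eif4a3, and the levels of these 6 genes are uncertain where the authors' counting could split such reads.

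The paralogs of these 3 factors rose less or fell. Eif4a2, a near relative of Eif4a1, fell from 287 and 265 FPKM to 210.5, 201, 199 and 195 FPKM in wild type and 202, 202, 199 and 207 FPKM in libraries labelled knockout (log2 change -0.45, SE 0.0421, limma adjusted p = 1.75e-06). Eif4a1 thus made up 63.0% and 62.2% of the FPKM of the pair before stimulation and 83.5% to 85.0% after it. Eif4e2, a cap-binding protein that represses translation, rose less than Eif4e (0.56), and Eif4e3 was low, at 4.09 and 4.57 FPKM before, then 3.52, 3.39, 3.48 and 3.20 FPKM in wild type and 3.73, 3.39, 3.07 and 3.05 FPKM in libraries labelled knockout (log2 change -0.29, SE 0.0792, limma adjusted p = 0.00543). The fall of Eif4e3 missed the threshold after rescaling to the same sum, with median-of-ratios scaling and without the unstimulated library labelled knockout (limma adjusted p = 0.0911), and its value turned to 0.12 (limma adjusted p = 0.153) after quantile normalization. It also did not pass with array weights or with the library letter as a block (limma adjusted p = 0.152 and 0.114).

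The share of Eif4e among the 3 cap-binding genes went from 51.5% and 48.3% to between 63.2% and 66.2%. Among the scaffolds, Eif4g2, which lacks the part that binds eIF4E, rose by 0.39 and Eif4g3 fell by 0.21 on the log2 scale. With array weights and with the library letter as a block Eif4g3 did not pass (limma adjusted p = 0.102 and 0.126). It lost its call after rescaling to the same sum (-0.047) and without the unstimulated library labelled knockout (-0.073, limma adjusted p = 0.280), and was 0.024 with median-of-ratios scaling. The share of Eif4g1 among the 3 went from 30.6% and 34.2% to between 47.6% and 49.2%. Eif4b and Eif4h, which stimulate the helicase, rose by 0.37 and 0.56, and Eif4b was at 0.11 (limma adjusted p = 0.0703) after quantile normalization.

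Eif4a3 is a related helicase of the exon junction complex rather than of initiation. It went from 74.9 and 96.3 FPKM to 145, 141, 151 and 142 FPKM in wild type and 144, 141, 153 and 149 FPKM in libraries labelled knockout (log2 change 0.77, SE 0.0665, limma adjusted p = 8.37e-07). Its stimulated levels lay between those of Eif4b and Eif4e.

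**Figure D3:**
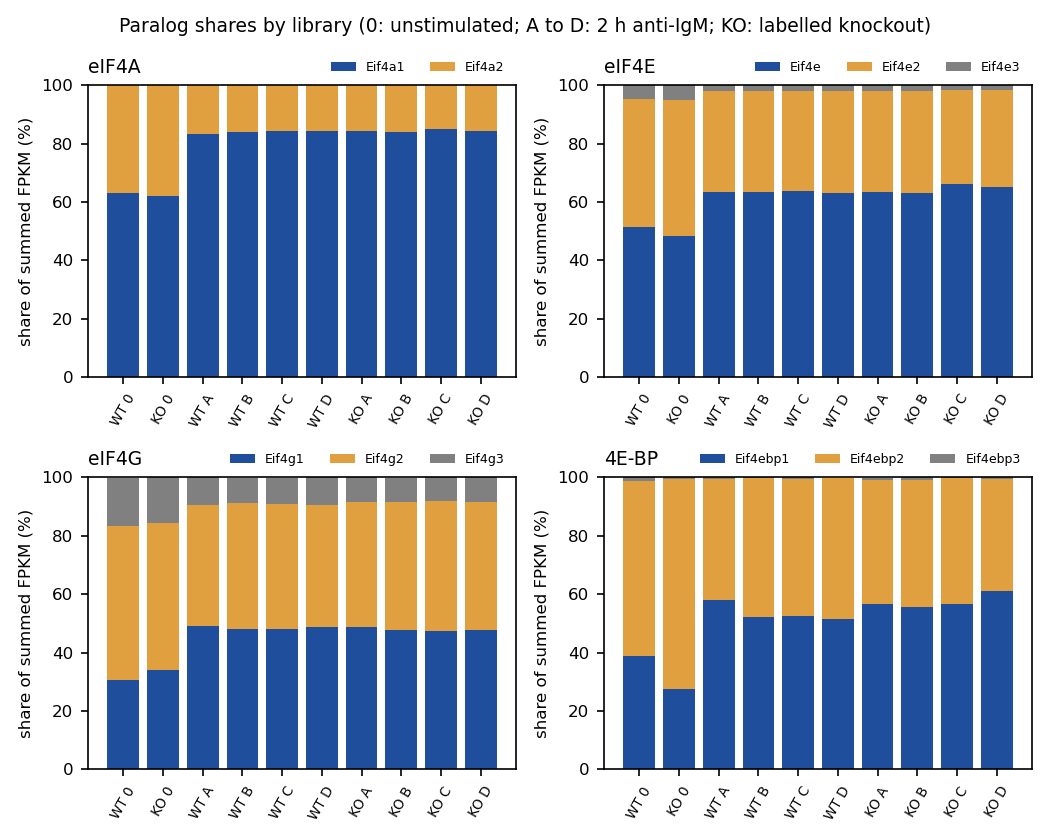
Share (y axis, %) of each paralog in the summed FPKM of eIF4A, eIF4E, eIF4G and 4E-BP genes in each of the 10 libraries; bars are single libraries. The shares of Eif4a1, Eif4e, Eif4g1 and Eif4ebp1 are higher in all 8 stimulated libraries than in both unstimulated ones.

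Among the proteins that bind and restrain eIF4E, Eif4ebp1 (4E-BP1) moved with Eif4e. It went from 21.9 and 20.6 FPKM to 62.1, 51.4, 49.5 and 48.1 FPKM in wild type and 56.2, 53.8, 54.7 and 60.4 FPKM in libraries labelled knockout (log2 change 1.32, SE 0.0856, limma adjusted p = 7.66e-08). The ratio of Eif4e to Eif4ebp1 FPKM was 2.09 in both unstimulated libraries and 1.78 to 2.29 in the stimulated ones, so these ranges overlapped. Eif4ebp2 (4E-BP2) was at 33.6 FPKM in unstimulated wild type and 53.5 FPKM in the unstimulated library labelled knockout. It stood at 44.0, 46.6, 44.1 and 45.1 FPKM in wild type and 42.2, 42.2, 41.3 and 37.9 FPKM in libraries labelled knockout after stimulation, between the unstimulated pair (log2 change 0.014, limma adjusted p = 0.925). Eif4ebp1 held 39.0% and 27.6% of the FPKM of the 3 4E-BP genes before stimulation and 51.5% to 61.2% after it. Eif4enif1, the eIF4E transporter, rose by 0.30, but measured 0.12 (limma adjusted p = 0.0779) without the unstimulated wild-type library and 0.23 (limma adjusted p = 0.0656) with the library letter as a block.

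The late-acting factors rose as well. Eif5b, which joins the subunits, went from 33.5 and 33.8 FPKM to 59.5, 60.5, 60.6 and 58.4 FPKM in wild type and 58.5, 58.5, 63.0 and 63.1 FPKM in libraries labelled knockout (log2 change 0.82, SE 0.0416, limma adjusted p = 9.81e-09). Eif6, which keeps free large subunits from joining too early, went from 48.1 and 55.7 FPKM to 92.3, 102, 97.5 and 98.1 FPKM in wild type and 94.3, 91.3, 95.4 and 91.8 FPKM in libraries labelled knockout (log2 change 0.87, SE 0.0578, limma adjusted p = 9.32e-08). Both genes were clear of their unstimulated values in every stimulated library.

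Eif5a, the hypusine-bearing factor that helps the ribosome through difficult peptide bonds, was second in abundance to Eif4a1. It was at 355 and 405 FPKM before and at 860.4, 845, 840.2 and 849 FPKM in wild type and 864, 860.0, 899.7 and 884 FPKM in libraries labelled knockout after stimulation (log2 change 1.18, SE 0.0427, limma adjusted p = 7.54e-10). Its rare paralog Eif5a2 went from 2.82 and 3.02 FPKM to 1.75, 2.02, 1.79 and 1.98 FPKM in wild type and 1.89, 1.90, 1.77 and 1.69 FPKM in libraries labelled knockout (log2 change -0.46, SE 0.0771, limma adjusted p = 0.000197). The fall of Eif5a2 did not pass after quantile normalization (-0.052, limma adjusted p = 0.511). The enzymes that make hypusine, Dhps and Dohh, rose by 0.55 and 0.75.

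Between the genotypes, initiation factor transcripts differed little after anti-IgM. The 4 stimulated libraries labelled knockout were compared with the 4 wild-type ones with limma. Of the 48 members, 2 passed at an adjusted p under 0.05 (4.17%), 1 higher and 1 lower, where 9.72% of all tested genes did (3.91% higher, 5.81% lower), and 9 members (18.8%) had an unadjusted p under 0.05, as did 22.1% of all tested genes. The median difference was 0.019 for the members and -0.024 for all genes, and the median size 0.042 and 0.064. The 95% interval of the difference lay within 0.2 log2 units of 0 for 42 of 48 members, and over all members the limits reached from -0.27 (Eif2b2) to 0.29 (Eif3j2). Across 4 libraries the median coefficient of variation of a member was 3.06% in wild type and 3.62% in libraries labelled knockout.

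Eif2b2 was the member called lower, at 26.5, 26.4, 28.4 and 28.8 FPKM in wild type and 24.6, 23.9, 23.0 and 25.1 FPKM in libraries labelled knockout. The groups did not overlap, and the means were 27.5 ± 1.24 and 24.1 ± 0.870 FPKM (SD, n = 4 each; log2 difference -0.18, SE 0.0401, limma adjusted p = 0.0205). Eif4g2 was called higher, at 166, 167, 173 and 164 FPKM in wild type and 176, 177, 179.8 and 179.9 FPKM in libraries labelled knockout, again without overlap (log2 difference 0.090, SE 0.0228, limma adjusted p = 0.0377). Eif2b2 kept its call in 16 of 20 alternatives and Eif4g2 in 9 of 20. Eif2b2 lost it without wild-type library C, wild-type library D or library C labelled knockout (limma adjusted p of 0.0600, 0.0593 and 0.0532). Eif4g2 lost it without any one of 7 stimulated libraries and kept it only without wild-type library C.

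Groups without overlap were found for 4 members, 2 higher and 2 lower, against 15.5% of all genes (5.96% higher, 9.57% lower). Beside these 2 they were Eif3i, higher by 0.089 (limma adjusted p = 0.0525), and Eif4ebp2 (-0.13, limma adjusted p = 0.0621). The other members with sizes above 0.1 were Eif2b4 (-0.15, limma adjusted p = 0.0696), Eif2d (-0.11, limma adjusted p = 0.196) and Eif4g3 (-0.11, limma adjusted p = 0.106). Eif4a1, Eif4e and Eif4g1 differed by 0.053, 0.039 and 0.025, each with a limma adjusted p of 0.308 or more.

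**Figure D4:**
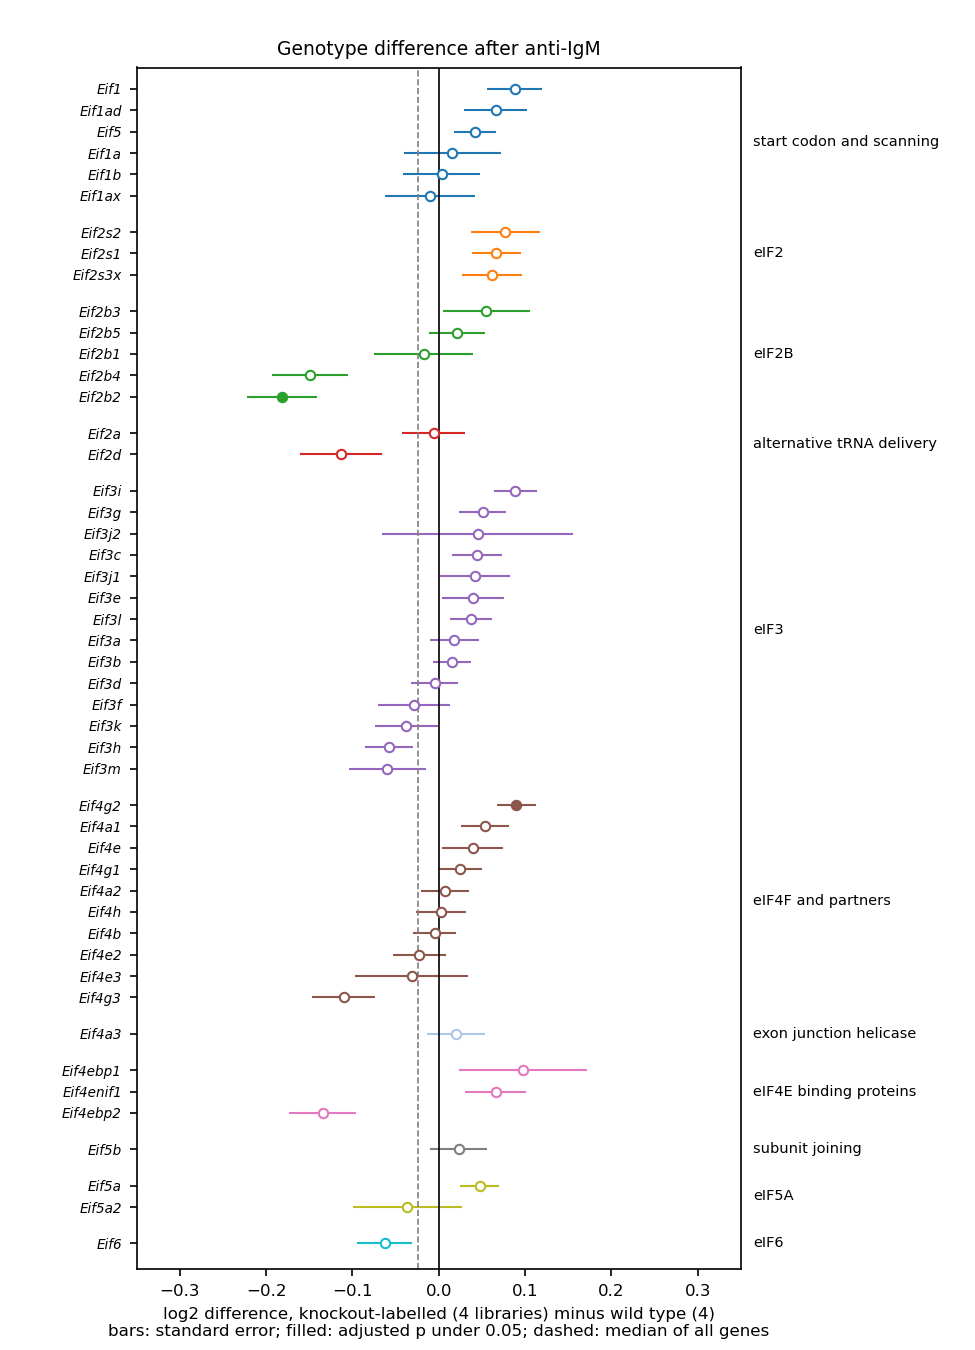
Log2 difference between stimulated libraries labelled knockout and wild type (x axis, log2(FPKM + 1) scale, 4 libraries each) for the 48 tested members; bars are standard errors, filled points passed the test and the dashed line is the median of all tested genes. Eif2b2 (-0.18) and Eif4g2 (0.090) are the filled points, and the open point at the left that is nearest to Eif2b2 is Eif2b4 (-0.15).

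The response to anti-IgM in the genotypes was set side by side, and their difference was tested with an interaction term over the 10 libraries, assuming that the lone unstimulated library of each genotype varies like the stimulated ones. Of 48 members 19 passed (39.6%), 8 with a positive and 11 with a negative term, against 18.9% of all genes (4.18% positive, 14.7% negative). The term is the log2 change in libraries labelled knockout minus that in wild type, so its sign does not say which change was larger in size. The median term was -0.095 for the members and -0.096 for all genes. With median-of-ratios scaling these medians were -0.035 and -0.039, and after rescaling to the same sum they were -0.26 and -0.25. The terms of the members thus moved with the scale, as those of all genes did. Each term is the genotype difference after stimulation minus that between the 2 unstimulated libraries. The former was small, so the latter sets most of the term.

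Eif4ebp2 had the smallest p. It differed by 0.65 before stimulation, as 1 library against 1, and by -0.13 after it, which makes a difference in response of -0.79 (limma adjusted p = 0.00182). For Eif3e the difference before stimulation was -0.55 and that in response 0.59 (limma adjusted p = 0.00287). Eif3b and Eif4g1 gave a difference in response of -0.38 each (limma adjusted p = 0.00260 and 0.00320), with 0.40 and 0.41 before stimulation and 0.016 and 0.025 after it. Both rose in the fit over all 10 libraries, by 2.67 and 2.69 times in mean FPKM in wild type and by 2.04 and 2.05 times in libraries labelled knockout.

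**Figure D5:**
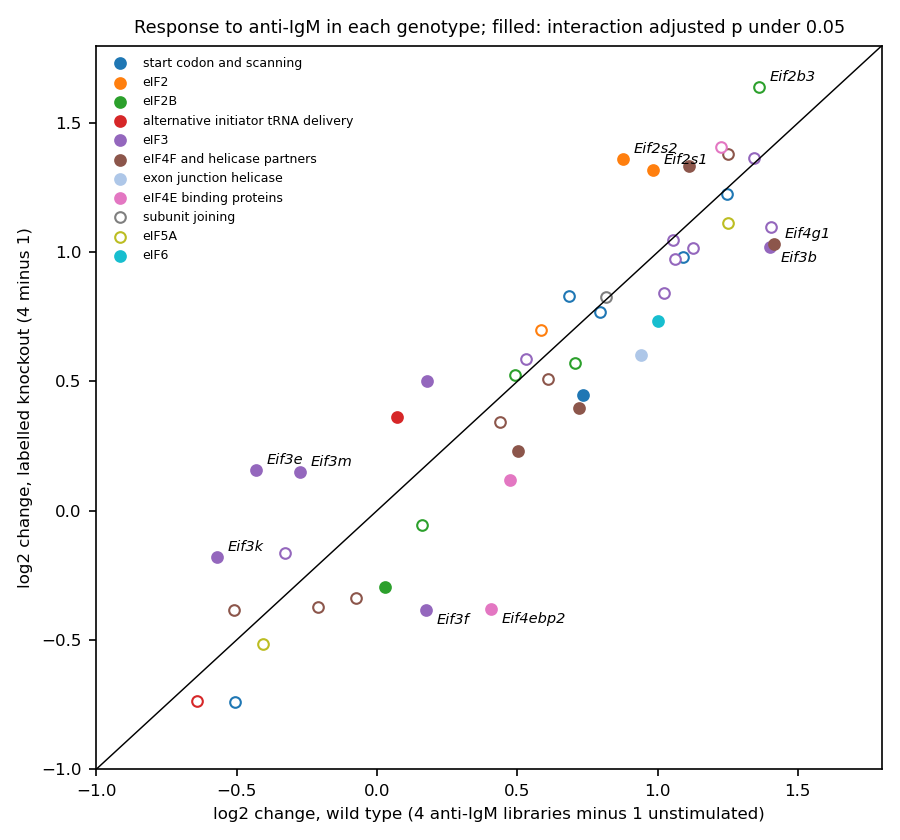
Log2 change with anti-IgM in wild type (x axis) and in libraries labelled knockout (y axis), each the mean of 4 stimulated libraries minus 1 unstimulated library, for the 48 tested members; filled points passed the interaction test and the line marks equal change. Eif4ebp2 and Eif3f lie farthest below the line and Eif3e and Eif2s2 farthest above it.

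Regulators and partners of initiation were read from a list of 49 genes, of which 48 were tested. The list was written with earlier results of these data known, so its shares beside those of all genes are descriptive. With anti-IgM 26 rose (54.2%) and 13 fell (27.1%), where 31.2% of all genes rose and 47.7% fell. The largest rises were those of Larp1, a repressor of mRNAs for the translation machinery (1.71), the stress-response factor Ddit3 (1.58), Ppp1r15a, which directs the removal of phosphate from eIF2 alpha (1.503), and the release factor Etf1 (1.42). The largest falls were those of Pdcd4, an inhibitor of eIF4A (-1.27), the eIF4E kinase Mknk2 (-1.13), Paip2, an inhibitor of poly(A)-binding protein (-1.10), and the double-stranded RNA sensor kinase Eif2ak2 (-1.03). These 8 had limma adjusted p of 7.48e-07 at most and kept their call in all alternatives run on them. Of the 7 genes on the list whose symbols begin with Eef, Eef1e1 (1.32), Eef1d (0.37) and Eef1g (0.19) rose and the kinase Eef2k fell (-0.51). The symbol alone does not make each of them an elongation factor. Eef1a1 (0.058), Eef1b2 (-0.033) and Eef2 (-0.0064) did not pass.

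Of these 48 genes 10 differed between the stimulated genotypes (20.8%), 5 higher and 5 lower in libraries labelled knockout, against 9.72% of all genes. Pdcd4 was at 28.9, 26.9, 27.3 and 28.1 FPKM in wild type and 23.4, 22.6, 23.7 and 22.6 FPKM in libraries labelled knockout (log2 difference -0.26, limma adjusted p = 0.000882). Mknk2 was at 85.0, 83.4, 82.3 and 85.8 FPKM in wild type and 72.3, 77.9, 71.5 and 72.3 FPKM in libraries labelled knockout (log2 difference -0.19, limma adjusted p = 0.00400). Ppp1r15b, the constitutive partner in eIF2 alpha dephosphorylation, was higher by 0.17 (limma adjusted p = 0.000900). The groups did not overlap for any of the 3, and their calls held in all 20 alternatives. Paip2 (-0.14), Denr (-0.18), Mtor (-0.19), Cyfip1 (0.28), Ddit4 (0.34), Atf4 (0.11) and Ddx3x (0.083) were also called, with limma adjusted p from 0.00492 to 0.0495, and each lost its call in 1 to 13 of 20 alternatives.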

How the data were processed

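The authors deposited 1 table of FPKM per gene. The submitters' processing notes name STAR 2.4, RSEM 1.2.14 and build mm10. How genes were annotated, filtered or counted by strand is not given in the sources used here, and depth is unknown. All 10 columns matched 1 sample description each. Values were transformed as log2(FPKM + 1). The 10225 genes whose mean reached 1 FPKM were fitted with limma 3.58.1 in R 4.3.3 (eBayes with trend, Benjamini-Hochberg over all genes, adjusted p under 0.05). The fits were also run on simulated data. There a gene had the same noise in every library, so whether unstimulated libraries vary like stimulated ones could not be checked. Fits were anti-IgM with genotype as a term (10 libraries), genotype after anti-IgM (8 libraries) and their interaction (10 libraries). The call rules, complexes, partner list and markers (6 lists) were written with earlier results of these data known. Genes shown library by library are the 6 largest rises and falls, genotype calls, the 4 smallest interaction p-values and the most abundant member of each complex. Partner genes named are the 4 largest rises and falls and all genotype calls. Other genes were chosen to complete a complex or after their values were seen. The mRNA kit was stranded, per the labels. Promoter sequences came from RefSeq (GRCm38.p6). The B cell, T cell, myeloid and plasma cell marker sums are in FPKM: plasma cell markers summed to 46.5 to 56.8 FPKM over all libraries, 3 NK cell markers to 1.65 FPKM at most and 3 erythroid markers to 3.30 to 61.1 FPKM. Alternatives covered pseudocount, filter, scaling, variance model, array weights, replicate block and leaving out each library.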

Additional observations from a re-analysis of the deposited data

Results flagged for a closer look

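In 4 of 98 groups of 4 stimulated libraries (49 members in each genotype), 1 library stood far from the other 3, and about 1 in 20 groups is marked so by chance, or 4.90 of 98. Wild-type library B held 176 FPKM of Eif3f, where the others held 165 to 166, and 211 FPKM of Eif3h, where the others held 205 to 206. Wild-type library C held 61.4 FPKM of Eif4e2, where the others held 59.7, and wild-type library A held 67.0 FPKM of Eif1ad, where the others held 60.2 to 61.0.

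The change with anti-IgM differed between the genotypes for 19 members, with a limma adjusted p under 0.05 for the interaction term. Each value rests on 1 unstimulated library per genotype. The term, the log2 change in libraries labelled knockout minus that in wild type, was positive for Eif3e (0.59), Eif2s2 (0.48), Eif3m (0.42), Eif3k (0.39), Eif2s1 (0.33), Eif3i (0.32), Eif2a (0.29) and Eif4a1 (0.22). Eif3e (-0.43 in wild type, 0.16 in libraries labelled knockout) and Eif3m (-0.27 and 0.15) had values of opposite sign, and Eif3k was negative in both (-0.57 and -0.18). The term was negative for Eif4ebp2 (-0.79), Eif3f (-0.56), Eif4g1 (-0.38), Eif3b (-0.38), Eif4enif1 (-0.35), Eif4a3 (-0.34), Eif2b4 (-0.32), Eif4h (-0.32), Eif1 (-0.29), Eif4b (-0.27) and Eif6 (-0.27). Of these, Eif4ebp2 (0.41 in wild type, -0.38 in libraries labelled knockout), Eif3f (0.18 and -0.38) and Eif2b4 (0.028 and -0.30) had values of opposite sign. Of the 19, 8 kept their call in all alternatives run on them and 11 lost it in at least 1, Eif2b4 in 12 of 19 and Eif4a1 in 10 of 19.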

How the results depend on the processing

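Of the 42 members called with anti-IgM, 33 kept direction and call in every alternative that tested them. Each of the 6 members that did not pass was called in 1 to 3 of 21 alternatives. The number called lower (8) was 5 after rescaling to the same sum and 4 with median-of-ratios scaling, and the number called higher (34) lay between 31 and 36 in all alternatives. Eif4e3 reversed after quantile normalization (0.12) and Eif4g3 with median-of-ratios scaling (0.024). Leaving out 1 library gave 34 to 36 higher and 8 to 11 lower. The 2 genotype calls became 1 with quantile normalization, without trend, with robust estimation and with the letter as a replicate block, and 3 after rescaling to the same sum and with a mean of at least 5 FPKM. With median-of-ratios scaling they were 2 higher and 0 lower. Counts can hold other members, and those called were 0 to 2 with 1 library left out: 0 without wild-type library D or library C labelled knockout and 1 without wild-type library C or library D labelled knockout. The 19 interaction calls became 11 with median-of-ratios scaling and were 15 to 19 with 1 stimulated library left out. Among the stimulated libraries no sign was seen that the letters pair the genotypes. Libraries with the same letter had correlations of -0.12 to 0.045 between their deviations from the group means. Of the wild-type libraries 0 of 4, and of those labelled knockout 1 of 4, correlated best with their own letter. With 4 libraries per genotype and no unstimulated library in it, this check cannot exclude that a letter stands for a shared source or day. With the replicate block, 32 members were called higher and 6 lower with anti-IgM and 14 for the interaction. The causes were not tested. FPKM carry no depth, so counting error could not be given.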
